A study of Mus musculus with 10 samples.

Results

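Of the 56748 genes in the count table, 10 were followed here by symbol as members of the Notch pathway: the receptors Notch1, Notch2 and Notch4, the ligands Dll1, Dll4, Jag1 and Jag2, and the targets Hey1, Heyl and Hes1. In Ad-Fam20c–KO adipocyte cultures, the endothelial ligand Dll4 fell to 35.6% and the endothelial receptor Notch4 to 63.9% of their control levels. Jag1, the ligand with the highest level, was 41.5 ± 2.94 CPM in KO and 43.1 ± 4.66 CPM in control cultures, and Notch2 was 34.1 ± 4.55 and 33.2 ± 3.71 CPM (CPM being counts scaled for library size, with the SD, n = 5 per group). Notch1, Jag2, Heyl and Hes1 had lower means in KO cultures but did not pass the test, Hey1 was 0.905 ± 0.302 CPM in KO and 0.911 ± 0.141 CPM in control cultures, and Dll1 was too low to test.

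The cells were primary adipocytes grown from the stromal vascular fraction of inguinal fat, which in the study's methods came from male mice 6 to 8 weeks old and was differentiated for 6 to 8 days. Both groups had the Fam20c-flox genotype and received adipogenic differentiation: the 5 control libraries carried only Fam20c-flox, and the 5 KO libraries were Fam20c-flox/Adipoq-Cre. Adipoq-Cre is a driver used for adipocytes, and its activity in the other cells of these cultures was not measured. With no Cre-only group, the effects of Cre and of the deletion cannot be told apart. The labels do not say which animals the cultures came from, so p-values measure the spread between these libraries.

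Notch receptors are single-pass membrane proteins that bind Delta-like or Jagged ligands on a neighbouring cell. Ligand binding lets ADAM proteases and then gamma-secretase cut the receptor, and the freed intracellular domain joins the DNA-binding protein RBPJ and Mastermind to switch on genes of the Hes and Hey families. In blood vessels, Dll4 and Notch4 are typical of the endothelium, where Dll4 marks tip and arterial cells, whereas Jag1, Notch1, Notch2 and Hes1 are also made by many other cell types.

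Libraries held 18949106 to 26237825 counts, and 14270 genes passed the filter on low counts, among them 9 of the 10 members. Fam20c, the targeted kinase gene, fell from 10.2 ± 1.29 to 7.30 ± 0.449 CPM (log2 fold change -0.49, SE 0.0929, adjusted p = 0.0137 by edgeR's quasi-likelihood test, Benjamini-Hochberg adjusted). The 12 adipocyte markers summed to 36807 to 38100 CPM in control and 38194 to 40475 CPM in KO libraries, so adipocyte genes were abundant in both groups. Every KO sum lay above every control sum, and the KO mean was 104.9% of the control mean. On the leading principal component (23.5% of the variance), control 4 and KO 1 lay at 21.7 and 24.2, apart from the other 8 libraries at -14.8 to 8.59. Among all genes tested, 2.17% were called at an adjusted p under 0.05, with 1.86% lower and 0.308% higher in KO. Of the 9 members tested, 2 were lower (Dll4 and Notch4) and 0 higher by edgeR's quasi-likelihood test. DESeq2 also called 2 members lower and 0 higher, where it called 2.52% of all genes lower and 0.876% higher. At an unadjusted p under 0.05, 6 members were lower and 0 higher, where 7.46% and 4.43% of all genes were. The log2 fold change lay below 0 for 8 of the 9, where 50.3% of all genes lay there, and the median of the members was -0.38, against -0.00085 over all genes tested.

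**Figure D1:**
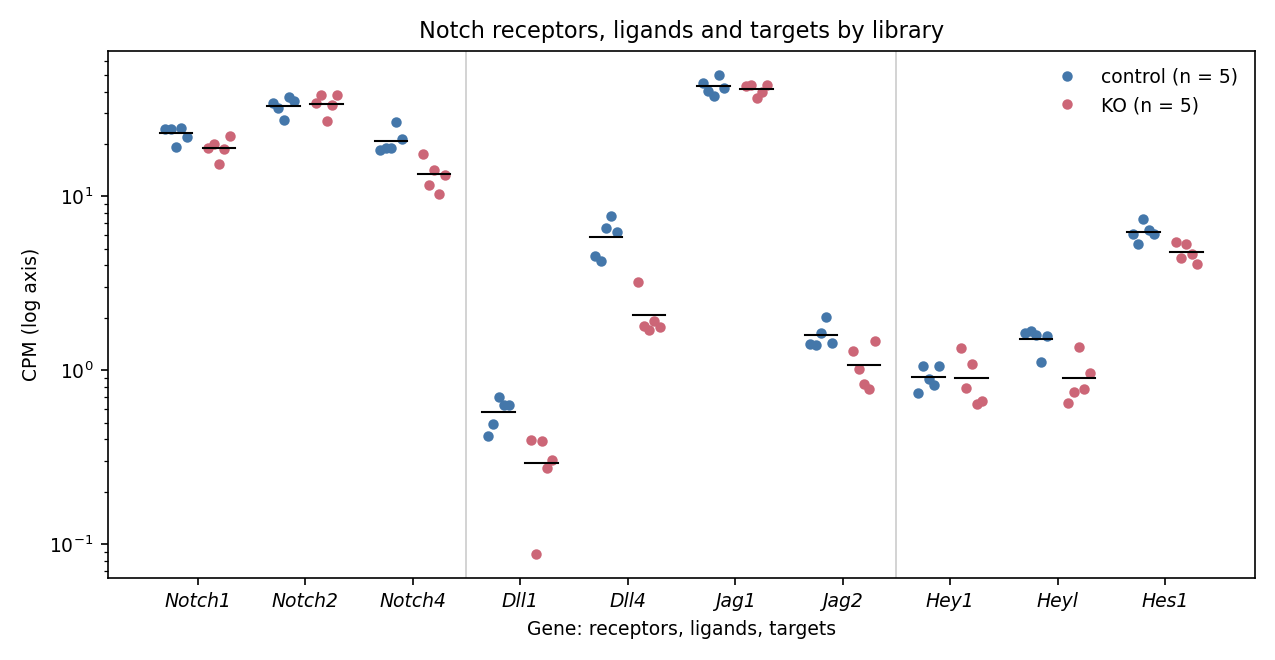
CPM of the 10 Notch members in each library (log axis), with 5 control libraries in blue and 5 KO libraries in red; each point is a library and each bar a group mean. The KO points of Notch4, Dll1 and Dll4 lie below every control point, and those of Notch2 and Jag1 overlap the control points, with 2 Jag1 controls above every KO library.

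Among the receptors, Notch4 (ENSMUSG00000015468.15, chromosome 17, 34564268 to 34588503, plus strand, GRCm38) is made mainly by endothelial cells. It read 18.4, 19.0, 19.0, 26.8 and 21.3 CPM in controls 1 to 5, and 17.5, 11.6, 14.1, 10.3 and 13.3 CPM in KO 1 to 5. Every KO library lay below every control library, an order that 2.66% of all genes tested showed, against 1.31% with every KO library above. KO 1, at 17.5 CPM, came close to control 1, at 18.4 CPM. The mean fell from 20.9 ± 3.48 to 13.3 ± 2.73 CPM, a log2 fold change of -0.65 (SE 0.139, adjusted p = 0.0288 by edgeR's quasi-likelihood test, Benjamini-Hochberg adjusted). The direction held without each library in turn (-0.76 to -0.54), but the adjusted p of the same edgeR test was above 0.05 without control 5 (0.0727), KO 2 (0.0995), KO 3 (0.0555), KO 4 (0.0683) or KO 5 (0.0768).

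Notch1 (ENSMUSG00000026923.16, chromosome 2, 26457903 to 26516663, minus strand) is the receptor through which Dll4 acts in sprouting vessels. It read 24.5, 24.5, 19.3, 24.8 and 21.9 CPM in controls 1 to 5, and 19.0, 19.9, 15.2, 18.6 and 22.3 CPM in KO 1 to 5. The groups overlapped, since KO 2 and KO 5 lay above control 3. The means were 23.0 ± 2.38 and 19.0 ± 2.55 CPM, and the log2 fold change of -0.27 (SE 0.0981) did not pass (adjusted p = 0.248, edgeR's quasi-likelihood test). Notch2 (ENSMUSG00000027878.12, chromosome 3, 98013527 to 98150361, plus strand), a widely expressed receptor, read 34.2, 32.1, 27.4, 37.1 and 35.3 CPM in controls 1 to 5, and 34.2, 38.1, 27.0, 33.3 and 38.1 CPM in KO 1 to 5. These ranges covered each other, and control 3 and KO 3 were the lowest of their groups. Its log2 fold change was 0.04, with a 95% interval of -0.18 to 0.25 (adjusted p = 0.943, edgeR's quasi-likelihood test). Notch3, the mural cell receptor and not a member, averaged 11.6 ± 1.64 CPM in the controls and 9.11 ± 1.78 CPM in the KO libraries (log2 fold change -0.35, SE 0.134, adjusted p = 0.287 by edgeR's quasi-likelihood test).

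Among the ligands, Dll4 (ENSMUSG00000027314.7, chromosome 2, 119325784 to 119335962, plus strand) binds Notch1 and restrains tip cell formation. It read 4.56, 4.24, 6.58, 7.69 and 6.26 CPM in controls 1 to 5, and 3.22, 1.80, 1.70, 1.92 and 1.78 CPM in KO 1 to 5, from 87 to 159 counts and 35 to 65 counts per library. The groups did not overlap. KO 2 to KO 5 lay close together and KO 1 stood above them. The mean fell from 5.87 ± 1.44 to 2.09 ± 0.641 CPM, a log2 fold change of -1.49 (SE 0.211, 95% interval -1.95 to -1.03, adjusted p = 0.00187 by edgeR's quasi-likelihood test, Benjamini-Hochberg adjusted). Dll4 passed without each library in turn, at log2 fold changes of -1.69 to -1.37. Its exons share 214 of their 3852 bases with the antisense gene Gm14207, which had 0 to 3 counts per library. The strand setting of the counting is not stated, so these low counts do not show that antisense RNA was absent.

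Dll1 (ENSMUSG00000014773.14, chromosome 17, 15367354 to 15376872, minus strand), a Delta-like ligand, was near the limit of detection with 2 to 15 counts per library. It read 0.420, 0.487, 0.705, 0.629 and 0.634 CPM in controls 1 to 5, and 0.397, 0.0878, 0.393, 0.275 and 0.305 CPM in KO 1 to 5. The KO libraries all lay below the controls, although 8 counts stood behind both the lowest control and the highest KO value. It was too low for the test. In a fit that kept every low gene, Dll1 gave a log2 fold change of -0.97 (SE 0.349, adjusted p = 0.327 by edgeR's quasi-likelihood test). Its exons share 867 bases with the antisense gene A930024N18Rik, and the strand setting of the counting is not stated.

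Jag1 (ENSMUSG00000027276.8, chromosome 2, 137081456 to 137116644, minus strand), a Jagged ligand made by endothelial, stromal and fat cells, read 45.0, 40.5, 37.9, 50.0 and 42.1 CPM in controls 1 to 5, and 42.8, 43.8, 37.0, 40.0 and 43.7 CPM in KO 1 to 5. The groups overlapped, although controls 1 and 4 lay above every KO library. The log2 fold change was -0.06, with a 95% interval of -0.22 to 0.11 (adjusted p = 0.871, edgeR's quasi-likelihood test). Jag2 (ENSMUSG00000002799.7, chromosome 12, 112907819 to 112929776, minus strand), the other Jagged ligand, was low, with 1.42, 1.39, 1.65, 2.03 and 1.44 CPM in the controls and 1.29, 1.01, 0.829, 0.779 and 1.48 CPM in the KO libraries. Only KO 5 reached into the control range. Its log2 fold change of -0.56 (SE 0.202) did not pass (adjusted p = 0.252, edgeR's quasi-likelihood test).

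Upstream sequence is shown for the members that fell, Dll4 and Notch4, and for Jag1, the most abundant ligand, which did not pass. Each is the 250 bases before the RefSeq start on GRCm38.p6, 5′ to 3′ on the gene's strand: chr2:119325534-119325783 (plus strand) for Dll4, chr17:34564045-34564294 (plus strand) for Notch4 and chr2:137116521-137116770 (minus strand) for Jag1. Capitals mark CATTGT, the reverse complement of ACAATG, a core that SOX factors can bind.
Dll4: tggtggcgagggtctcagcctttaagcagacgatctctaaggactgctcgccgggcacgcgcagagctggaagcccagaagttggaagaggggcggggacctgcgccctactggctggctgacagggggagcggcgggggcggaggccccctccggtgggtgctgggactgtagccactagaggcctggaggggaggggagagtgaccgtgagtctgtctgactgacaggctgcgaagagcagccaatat
Notch4: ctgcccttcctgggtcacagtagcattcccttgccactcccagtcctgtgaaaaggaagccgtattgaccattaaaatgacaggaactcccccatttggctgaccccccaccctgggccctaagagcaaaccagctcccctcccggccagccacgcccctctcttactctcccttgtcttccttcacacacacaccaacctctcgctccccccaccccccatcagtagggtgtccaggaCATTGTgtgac
Jag1: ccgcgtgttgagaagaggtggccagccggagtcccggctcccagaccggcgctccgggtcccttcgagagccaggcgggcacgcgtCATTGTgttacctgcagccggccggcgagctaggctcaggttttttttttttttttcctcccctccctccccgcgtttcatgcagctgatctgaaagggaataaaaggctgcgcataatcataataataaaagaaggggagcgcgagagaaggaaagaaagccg
Windows were found for 7 of the 10 members, with a pair of them for Dll1, and not for Hey1, Heyl and Hes1. Both strands were searched for TGGGAA (the core RBPJ binds), for CCGGAA (an ETS core) and for ACAAAG or ACAATG (SOX cores). These letters occurred in 21.6%, 12% and 25.2% of 32851 RefSeq windows of the same length. In the member windows, neither TGGGAA nor CCGGAA was found. A SOX core was found once in Notch4 (bases -11 to -6), once in Jag1 (-164 to -159) and 3 times in the farther window of Dll1, and none was found in Dll4. GC content was 65.6% for Dll4, 58.4% for Notch4 and 57.2% for Jag1.

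Among the targets, Heyl (ENSMUSG00000032744.5, chromosome 4, 123233556 to 123249875, plus strand), a Hey-family repressor typical of vessel wall cells, read 1.63, 1.69, 1.6, 1.11 and 1.56 CPM in controls 1 to 5, and 0.645, 0.746, 1.35, 0.779 and 0.967 CPM in KO 1 to 5. The groups overlapped through control 4 and KO 3: 4 of 5 controls lay above every KO library. The means were 1.52 ± 0.231 and 0.898 ± 0.280 CPM, and the log2 fold change of -0.75 (SE 0.210) missed the limit (adjusted p = 0.105, edgeR's quasi-likelihood test). Without KO 3 it was -0.95 and passed (adjusted p = 0.0302, the same edgeR test).

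Hes1 (ENSMUSG00000022528.9, chromosome 16, 30064384 to 30067796, plus strand), the repressor that many cell types switch on below Notch, read 6.03, 5.32, 7.38, 6.38 and 6.04 CPM in controls 1 to 5, and 5.46, 4.39, 5.32, 4.67 and 4.07 CPM in KO 1 to 5. Only control 2 lay within the KO range. The log2 fold change of -0.38 (SE 0.113) did not pass (adjusted p = 0.135, edgeR's quasi-likelihood test). Hey1 (ENSMUSG00000040289.9, chromosome 3, 8663359 to 8667256, minus strand), an arterial and also mesenchymal target, read 0.734, 1.05, 0.894, 0.822 and 1.06 CPM in controls 1 to 5, and 1.34, 0.790, 1.09, 0.641 and 0.662 CPM in KO 1 to 5. KO libraries lay on both sides of the controls. Its log2 fold change was -0.02, and at 13 to 28 counts per library the 95% interval ran from -0.52 to 0.47 (adjusted p = 0.988, edgeR's quasi-likelihood test).

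Per length (RPKM, CPM per kilobase of merged exons), the control order was Jag1 (7.39 ± 0.800), Notch2 (3.08 ± 0.344), Hes1 (3.06 ± 0.368), Notch4 (2.59 ± 0.432), Notch1 (1.61 ± 0.167), Dll4 (1.52 ± 0.375), Heyl (0.297 ± 0.0452), Hey1 (0.279 ± 0.0433), Jag2 (0.227 ± 0.0388) and Dll1 (0.136 ± 0.0278). Neighbours separated beyond their ranges at Jag1 and Notch2, Notch4 and Notch1, Dll4 and Heyl, and Jag2 and Dll1. The other neighbours overlapped. In KO cultures, Notch4 (1.66 ± 0.339) overlapped Notch1 (1.34 ± 0.179), and Dll4 (0.542 ± 0.166) lay clear of Notch1. The order otherwise differed only in that Hey1 stood above Heyl, and these overlapped in both groups.

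The make-up of the receptor and ligand pools differed between the groups. Of the summed RPKM of the 4 receptors, Notch2 made up 33.3% to 37.4% in control and 39.2% to 46.5% in KO libraries, with no overlap. Notch4 made up 26.8% to 32.3% and 19.0% to 28.3%, overlapping, and Notch1 16.9% to 20.5% and 16.5% to 19.8%. Of the 4 ligands, Dll4 made up 12.8% to 19.9% in control and 5.61% to 9.89% in KO libraries, and Jag1 75.5% to 83.9% and 86.8% to 92.2%. Both ligand shares were apart in the groups. Since shares of a pool sum to a whole, the larger Jag1 and Notch2 shares stood beside CPM levels that did not pass the test.

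**Figure D2:**
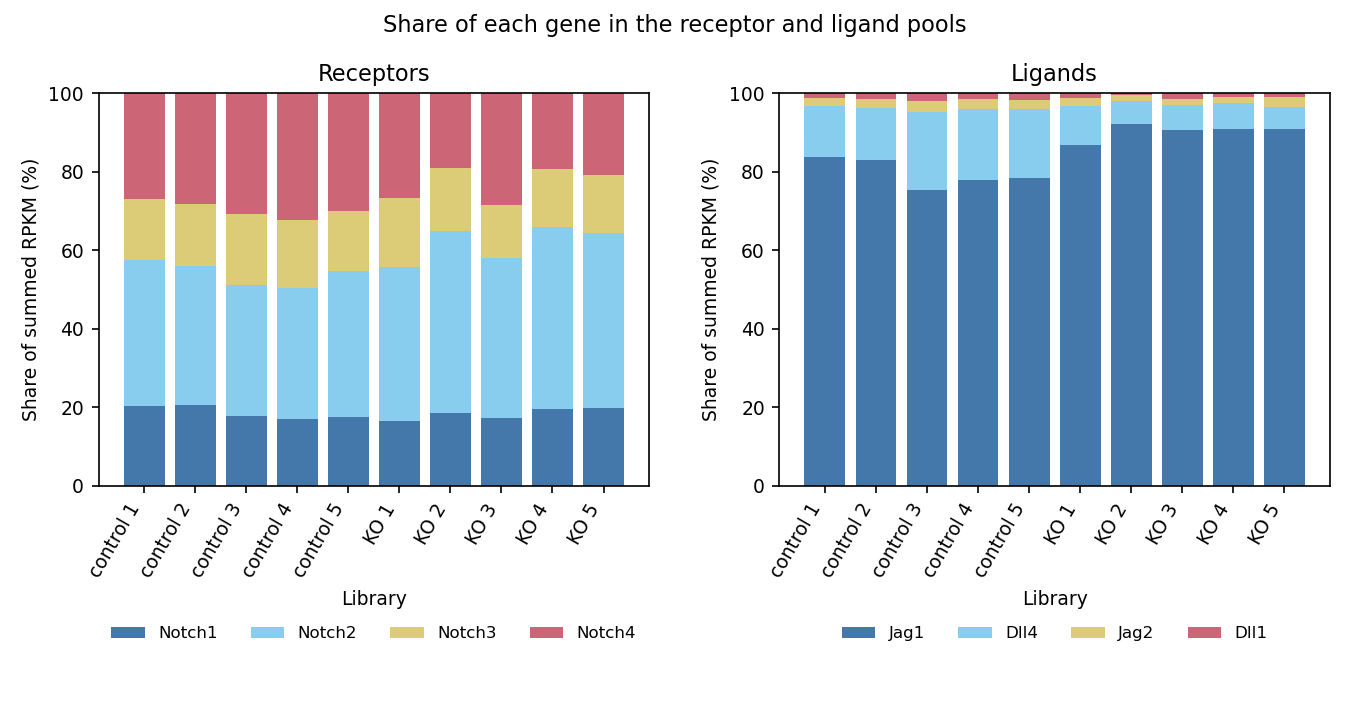
Share of each gene in the summed RPKM of the 4 Notch receptors (left) and of the 4 ligands (right), in percent, for the 10 libraries. The Dll4 band is 12.8% to 19.9% in the control libraries and 5.61% to 9.89% in the KO libraries, where Jag1 takes 86.8% to 92.2%.

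Of 45 further Notch pathway genes, 40 could be tested. By edgeR's quasi-likelihood test 2 fell and 0 rose, where 1.86% of all genes were lower and 0.308% higher. At an unadjusted p under 0.05, 5 were lower and 1 higher, where 7.46% and 4.43% of all genes were. Their median log2 fold change was -0.01, close to that of all genes. DESeq2 called 3 lower and 0 higher. The further gene was Numbl, an adaptor that directs Notch to endocytosis, named after its values were seen (log2 fold change -0.18). Dll3, Dlk2, Dtx1, Hes5 and Hes7 were too low to test.

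Nrarp, a target that feeds back to limit Notch signalling and is strongly expressed in endothelium, read 2.20, 2.59, 2.21, 2.13 and 2.37 CPM in controls 1 to 5, and 0.794, 1.32, 0.829, 0.596 and 0.916 CPM in KO 1 to 5. No KO library reached the controls. Its exons share 2051 of their 2582 bases with the antisense gene Gm38287, which had 0 counts in each library. Since the strand setting of the counting is not stated, those 0 counts do not show that antisense RNA was absent. The Nrarp counts may also rest on the bases outside the overlap. Its log2 fold change was -1.36 (SE 0.183, adjusted p = 0.00134 by edgeR's quasi-likelihood test, Benjamini-Hochberg adjusted). Mfng, a Fringe enzyme that lengthens the O-fucose on the receptors and so shifts their ligand preference, read 2.31, 1.87, 2.73, 2.37 and 2.49 CPM in controls 1 to 5, and 1.09, 1.36, 1.09, 1.33 and 1.27 CPM in KO 1 to 5. These groups did not overlap either. Its log2 fold change was -0.93 (SE 0.145, adjusted p = 0.00380 by edgeR's quasi-likelihood test). Of the other targets, Hey2 was 7.25 ± 1.07 CPM in control and 6.54 ± 0.575 CPM in KO, and Hes6 was 10.1 ± 0.699 and 9.98 ± 1.08 CPM.

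In the other roles no gene passed by edgeR. With 2.17% of all genes called, a count of 0 among so few genes is near the background and is given as a description. Of the 9 cleavage genes tested, 0 passed by edgeR or DESeq2 and 0 had an unadjusted p under 0.05, with log2 fold changes of -0.06 to 0.05. Furin, which cuts the receptor on its way to the surface, was 96.4 ± 1.94 CPM in control and 94.8 ± 5.17 CPM in KO, and Ncstn, a gamma-secretase subunit, was 114.9 ± 2.15 and 113.5 ± 3.65 CPM. Of the 11 genes of the nuclear complex, 0 passed by either tool and 1 was higher at an unadjusted p under 0.05 (log2 fold changes of -0.15 to 0.14). Kat2b, an acetyltransferase, was 87.0 ± 5.07 and 88.7 ± 8.08 CPM, and Snw1, a co-regulator of RBPJ, was 64.6 ± 2.39 and 66.1 ± 3.90 CPM. Rbpj itself, named after its values were seen, was 48.8 ± 3.70 and 49.8 ± 4.50 CPM, with a 95% interval of -0.12 to 0.18 for its log2 fold change. Of the glycosylation enzymes other than Mfng, Pofut1, which adds the O-fucose, was at 42.8 ± 1.89 and 41.3 ± 2.32 CPM and Poglut1, which adds O-glucose, was at 35.8 ± 2.13 and 36.2 ± 0.719 CPM. Lfng, the related Fringe, read 6.58 to 10.5 CPM in control and 5.66 to 7.64 CPM in KO libraries.

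Genes that handle the proteins at the membrane did not pass by edgeR either, and DESeq2 called Numbl alone among them. Of the 4 ubiquitin ligases that prompt ligand endocytosis, Mib1 was 71.0 ± 9.44 CPM in control and 72.5 ± 8.59 CPM in KO, and Mib2 was 26.2 ± 2.98 and 27.9 ± 2.36 CPM. Of the 6 receptor trafficking genes tested, the ubiquitin ligases Dtx4 and Itch were 95.5 ± 5.20 and 73.9 ± 5.63 CPM in control and 94.9 ± 6.44 and 78.5 ± 3.29 CPM in KO. Dlk1, a non-canonical ligand known from preadipocytes, was 12.6 ± 1.05 and 11.2 ± 2.06 CPM, and the related Dlk2 0.109 ± 0.0677 and 0.192 ± 0.0711 CPM.

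**Figure D3:**
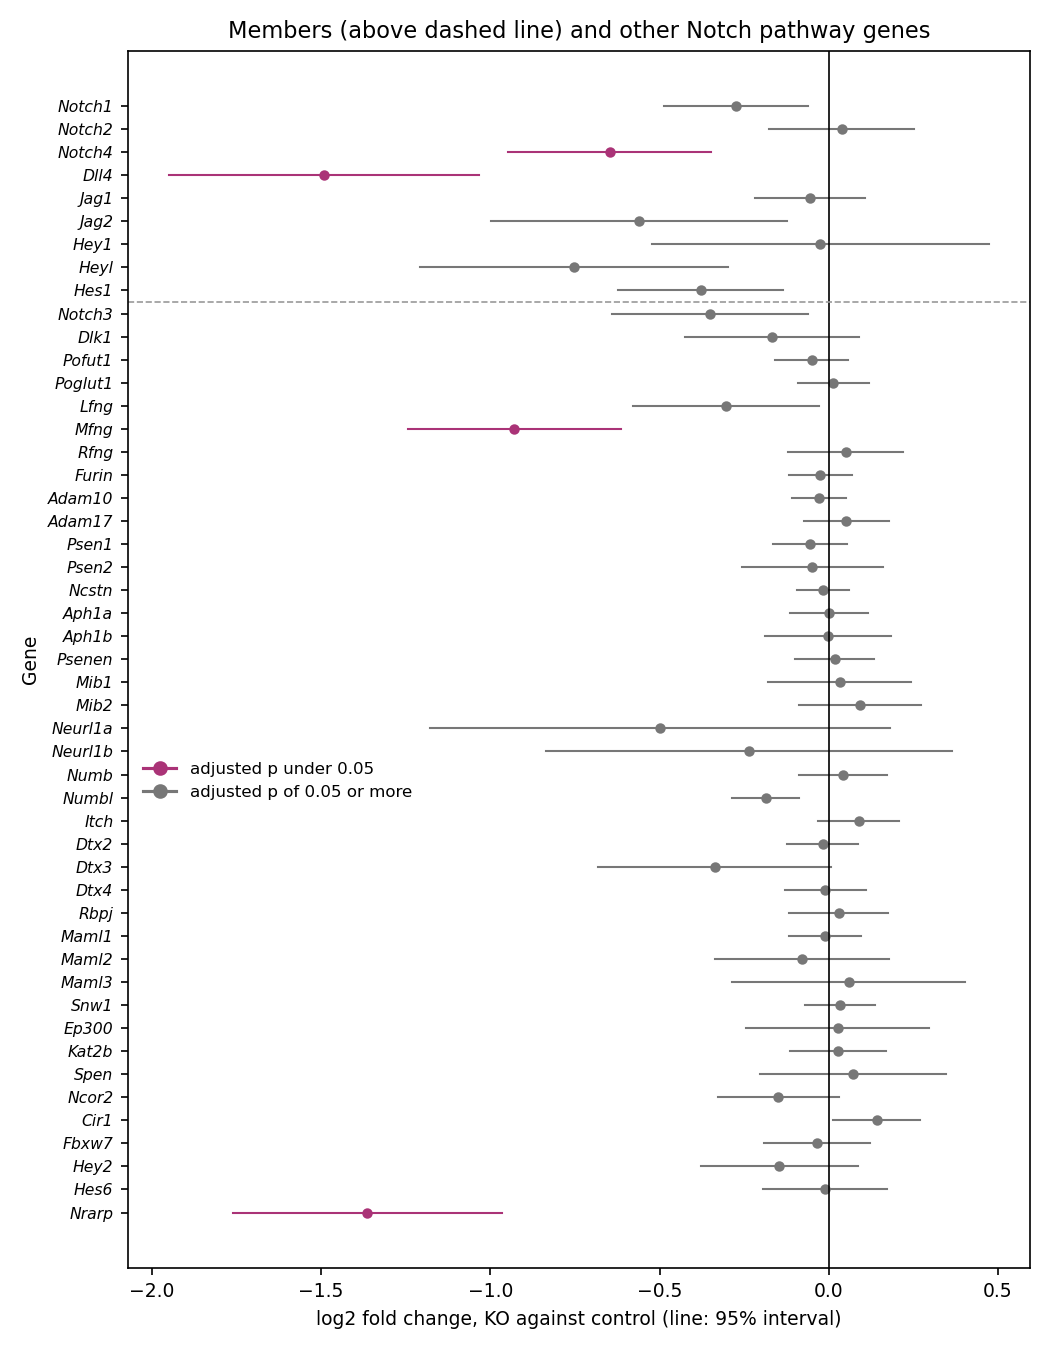
Log2 fold change of KO against control for the 9 members tested (above the dashed line) and 40 other Notch pathway genes, with 95% intervals; purple marks an adjusted p under 0.05 in edgeR's quasi-likelihood test. Dll4 (-1.49), Notch4 (-0.65), Nrarp (-1.36) and Mfng (-0.93) are purple, and the cleavage genes lie between -0.06 and 0.05.

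Endothelial markers moved with the genes that fell. Of 30 blood endothelial markers, none of them a Notch pathway gene, 29 were tested. By edgeR 25 were lower in KO, where 1.86% of all genes were, and the median log2 fold change was -1.22. The list was chosen with earlier results of these data known, so the count is a description. It holds Esm1, which the paper names as its most significantly lowered gene for a secreted protein. The summed level of the 30 markers was 299.9 to 354.1 CPM in control and 136.4 to 192.2 CPM in KO libraries, so KO cultures held 47.8% of the control mean. The defining markers Pecam1 (42.0 and 18.0 CPM in control and KO), Cdh5 (53.1 and 22.1), Kdr (7.89 and 4.4) and Tie1 (10.7 and 4.21) fell. Tek was 5.61 and 4.91 CPM (adjusted p = 0.835, edgeR's quasi-likelihood test), and none of the 5 was at 0. Elsewhere in the list, Flt1, Vwf and Nos3, at log2 fold changes of -0.48, -0.39 and -0.29, did not pass either. Their adjusted p-values were 0.365, 0.434 and 0.409 by the same edgeR test. KO 1, the KO library with the most Dll4 and Notch4, also had the highest sum among KO libraries. Nrarp and Mfng did not follow that order. Among KO libraries they were highest in KO 2 (1.32 and 1.36 CPM, at a sum of 155.1 CPM) and read 0.794 and 1.09 CPM in KO 1. KO 3, at a sum of 164.0 CPM, had the lowest Dll4 (1.70 CPM). The part of these cells in the lower Dll4, Notch4, Nrarp and Mfng was not tested, and in bulk RNA fewer endothelial cells and less RNA per cell cannot be told apart.

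Per 1000 CPM of the same endothelial markers, Dll4 was 13.7 to 21.7 CPM in control and 10.4 to 16.8 CPM in KO libraries, which overlapped, and the KO mean of this ratio was 0.744 of the control mean. Notch4 was 53.5 to 75.7 and 74.7 to 90.8 CPM on that scale, overlapping at the edge, with a KO mean 1.33 times that of control. Jag1 was 106.9 to 150.2 and 222.7 to 295.2 CPM, Notch2 77.4 to 114.2 and 164.7 to 257.7 CPM, and Hes1 17.3 to 20.8 and 27.5 to 34.3 CPM, all without overlap. Dll4 was the only member whose ratio was lower on average in KO, and for the other 9 the KO mean was 1.06 to 2.17 times the control mean. These ratios divide by a sum that was lower in every KO library, so a gene of unchanged CPM is higher in KO on this scale. The separation of Jag1, Notch2 and Hes1 here therefore follows in large part from the divisor. The share of all genes that separate on this scale was not taken, and no test was made on the ratios.

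**Figure D4:**
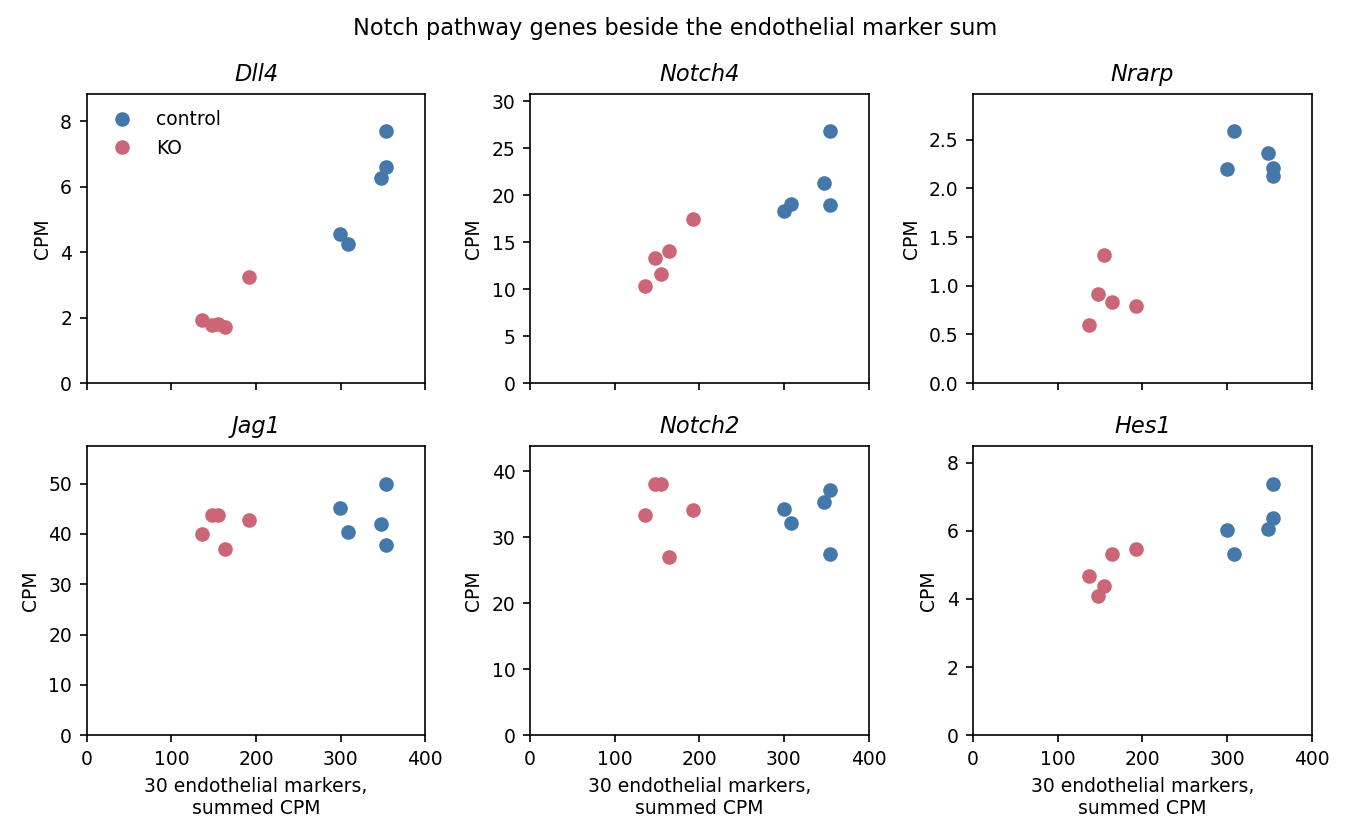
CPM of 6 Notch pathway genes in each library against the summed CPM of 30 endothelial markers, control in blue and KO in red. The control sums lie at 299.9 to 354.1 CPM and the KO sums at 136.4 to 192.2 CPM, while Dll4, Notch4 and Nrarp are lower in every KO library, and the Jag1 and Notch2 ranges overlap.

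Markers of other cell types were read in the same libraries. Their counts stand beside shares over all genes of 1.86% lower and 0.308% higher by edgeR, 2.52% and 0.876% by DESeq2, and 7.46% and 4.43% at an unadjusted p under 0.05. The 12 mural markers summed to 244.7 to 308.5 CPM in control and 211.7 to 262.5 CPM in KO libraries. Of the 9 tested, 0 were called by edgeR or DESeq2 and 4 were lower at an unadjusted p under 0.05, while Rgs5, a pericyte marker, was 0.700 and 0.279 CPM and too low to test. For 2 of the list, Kcnj8 (2.15 and 1.48 CPM) and Abcc9 (7.34 and 5.48 CPM), every KO library lay below every control. That order was shown by 2.66% of all genes tested. Pdgfrb, Mcam and Cspg4, at 91.5, 69.2 and 36.8 CPM in control, made up most of the mural sum. The 8 macrophage markers, at 1263 to 1975 and 1118 to 1861 CPM, had 0 calls by either tool and 0 at an unadjusted p under 0.05. Of the 8 progenitor markers, 3 were lower by edgeR (Pdgfra, Lum and Col1a1), with sums of 2776 to 3240 and 2385 to 2800 CPM. Of the 12 adipocyte markers, 0 were called by edgeR, 1 was higher by DESeq2 and 4 were higher at an unadjusted p under 0.05. Of 9 arterial and tip cell markers, a class in which Dll4 is known, 6 were tested. By either tool and at an unadjusted p under 0.05, 0 of them were called, at summed levels of 221.3 to 349.3 CPM in control and 221.4 to 325.0 CPM in KO libraries. Nrp1, Sema3g and Apln, at 103.7, 80.8 and 47.4 CPM in control, made up most of that sum. Which cells made them was not measured, so the sum does not show the level of arterial or tip cells. Too low to test were Bmx (0.235 and 0.102 CPM in control and KO), Gja4 (0.0442 and 0.0380) and Gja5 (0.116 and 0.148). Esm1, Angpt2 and Sox17, also known from tip or arterial cells, stood in the endothelial list instead. They were called lower by edgeR, at log2 fold changes of -1.84, -1.15 and -1.35.

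The tested genes whose centred log2 CPM over the 10 libraries lay closest to Dll4, out of 12906 compared, were Trp53i11, Pecam1 and Angpt2, with root mean square differences of 0.215, 0.225 and 0.235. Pecam1 is an endothelial junction protein and Angpt2 a ligand of the Tek receptor, and both are among the endothelial markers. The closest to Notch4 were Lmo7, H2-Q5 and Spata13, at 0.108, 0.115 and 0.153. These are descriptions over 10 libraries that share the group difference, and of the 6, Lmo7 and Spata13 did not pass the test.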

How the data were processed

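The members, the gene lists and the tests were chosen with earlier results of these data known. The authors used SMARTer v4 and Nextera XT library kits, STAR for mapping on GRCm38.p6 and featureCounts on an Ensembl annotation, and deposited raw fragment counts per gene. The strand setting is not given in the sources used here. Positions and exon lengths come from GENCODE M21 (GRCm38), matched by stable ID for 52125 of the 56748 genes. Of these, 52088 carry a later version in the table, so the counted gene models, and the RPKM made from these lengths, may differ. Upstream windows are from RefSeq on GRCm38.p6. No column belonged to another sample.

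Low genes were dropped with filterByExpr (minimum count 10), and edgeR 4.0.16 (R 4.3.3) scaled the counts by TMM and compared KO with control by the quasi-likelihood test, with Benjamini-Hochberg adjustment over all 14270 genes tested and a limit of 0.05. SE and 95% intervals are those of the log2 fold change and are not adjusted for multiple tests. Log2 CPM used a prior count of 2. At 18949106 to 26237825 counts per library, counting error is largest for Dll1, Hey1, Heyl and Jag2. Libraries of a group differed beyond sampling noise (lowest chi-square per degree of freedom 3.54), and the biological coefficient of variation was 9.35%.

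Named were Fam20c, the members and other Notch pathway genes that passed or were among the 2 highest of their role. The 5 defining blood endothelial markers were named too. Each member that passed added the 3 tested genes of mean log2 CPM of at least 0 with the smallest root mean square difference. Of the other cell type markers only some were named, with their values seen. Rbpj, Numbl and Lfng were named after their values were seen. Alternatives were DESeq2 1.42.0, limma 3.58.1 voom with quality weights, other size factors and filters, a replicate block, an endothelial covariate, and libraries left out. The scripts were tested on simulated data.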

Additional observations from a re-analysis of the deposited data

Results flagged for a closer look

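In 22 groups of 5 libraries (each member and Fam20c in control and in KO), a library was singled out where its gap to the nearest other, divided by the range of the group, was above 0.71, which chance gives in about 5% of groups. Dll4 in KO 1 had a ratio of 0.854: it was 3.22 CPM there and 1.70 to 1.92 CPM in the other KO libraries. Without KO 1 the log2 fold change of Dll4 moved away from 0, and KO 1 also stood apart on the leading principal component. Heyl in control 4 had a ratio of 0.786: it was 1.11 CPM there and 1.56 to 1.69 CPM in the other controls.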

How the results depend on the processing

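Dll4 and Notch4 were called under DESeq2, both other size factors, both other filters and without control 4 and KO 1 together. The voom fit added Heyl (-0.83, adjusted p = 0.0287). The replicate numbers gave no pairing in the labels, and same-numbered libraries deviated together at -0.25 to 0.26, and control 3 alone correlated best with its own number, so they share only a number. With a replicate block, 1 member was called (Dll4), Notch4 was -0.65 (adjusted p = 0.0962), and 21 genes were higher over all. With the endothelial marker mean as a covariate, edgeR called 0 members, 0 other pathway genes and 0 genes over all, Fam20c included. At an unadjusted p under 0.05 it gave 0 members lower and 1 higher, 4 other pathway genes lower and 2 higher, and 685 genes lower and 926 higher over all. The covariate itself separated the groups without overlap, and the standard errors rose. Its log2 fold changes were 0.86 for Notch4 (SE 0.427), 0.83 for Dll4 (SE 0.674), -0.31 for Notch2, 0.43 for Jag2, 2.04 for Hey1, 0.60 for Hes1 and 0.48 for Notch3. The log2 fold changes of Notch1 (-0.85, SE 0.406), Heyl (-1.07, SE 0.981) and Jag1 (-0.10, SE 0.334) stayed below 0. Those of Nrarp (-1.38), Mfng (-0.88) and Fam20c (-0.54) stayed near the values without the covariate, while their adjusted p-values rose to 0.577, 0.727 and 0.665. Over all genes, 44 were higher, against 125 by DESeq2, 111 by voom and 145 without control 4 and KO 1. The cause was not tested. With each library left out in turn, 164 to 323 genes were lower and 19 to 119 higher, and 1 to 2 members and 2 other pathway genes each time were lower. The lower count moved by over 1.5 times without KO 2 (164) or KO 5 (171), and the higher count without control 1 (23), control 3 (24), control 4 (119), control 5 (19), KO 2 (23), KO 3 (29), KO 4 (24) or KO 5 (23). The log2 fold changes then ran from -0.76 to -0.54 for Notch4, -1.69 to -1.37 for Dll4, -0.95 to -0.65 for Heyl, -0.020 to 0.12 for Notch2, -0.095 to 0.0063 for Jag1, -0.20 to 0.078 for Hey1 and -0.023 to 0.082 for Rbpj. The widest counting error is that of Dll1, Hey1, Heyl and Jag2.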

Other observations

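Among 5 lymphatic endothelial markers, Flt4, a VEGF receptor that is also made by sprouting blood vessels, fell by 1.07 on the log2 scale, with 6.88 ± 0.665 CPM in control and 3.27 ± 0.622 CPM in KO libraries (SD, n = 5 each, SE 0.132, adjusted p = 0.000782 by edgeR's quasi-likelihood test), and no KO library reached the controls. The other 3 lymphatic markers tested were not called. At an unadjusted p under 0.05, 2 of the 4 tested were lower and 0 higher, where 7.46% and 4.43% of all genes were. Prox1 was 0.719 and 0.434 CPM in control and KO (log2 fold change -0.698, SE 0.237, adjusted p = 0.213 by edgeR's quasi-likelihood test). The summed level of the list was 62.6 to 78.7 CPM in control and 55.5 to 78.1 CPM in KO libraries. Pdpn and Lyve1, at log2 fold changes of 0.05 and -0.05, made up most of that sum. The 4 venous markers had 0 calls by that test or DESeq2, with 1 lower at an unadjusted p under 0.05, at 43.4 to 51.7 and 40.8 to 45.8 CPM in control and KO libraries. Their log2 fold changes were -0.94 for Selp, the endothelial P-selectin (SE 0.274, adjusted p = 0.126 by edgeR's quasi-likelihood test), -0.31 for Ackr1, -0.13 for Nr2f2 and -0.09 for Ephb4.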
